A study of Mus musculus with 23 samples.

Results

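The genes described here are the odorant receptor genes of the receptor cluster on mouse chromosome 19. They were chosen by symbol: every symbol made of Olfr and a number from 1417 to 1505, without pseudogene symbols and without Olfr1440 and Olfr1449. This gave 57 members among the 1102 receptor symbols of the form Olfr and a number, and among 23481 gene symbols in all. The rule itself uses no expression value, but the members were chosen with earlier results of these data known.

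The study measured messenger RNA bound to ribosomes that carry phosphorylated S6, a ribosomal protein that is phosphorylated in recently active neurons. Ribosomes were captured from the olfactory epithelium of c57BL/6 mice of postnatal day 21 with a pS6 antibody, and the captured RNA was sequenced. All mice were of the same strain and age, and an exposure lasted 1 h. In the acetophenone experiment 5 control libraries came from litters 1 to 5, 3 libraries of the undiluted odor (100% acetophenone) from litters 1 to 3, and 3 libraries of the 1% dilution from litters 3 to 5. In the TMT experiment each of 4 litters gave a control, a 1% TMT and a 100% TMT library. The 23 libraries held 3 to 5 replicates a group; the labels name the litter of each but not how many mice entered it. Acetophenone is an aromatic ketone with a sweet smell, and TMT is a thiazoline from fox secretions that is used as a predator odor.

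Odorant receptors are G protein-coupled receptors in the cilia of olfactory sensory neurons. A mature neuron expresses a single receptor gene from a single allele, so the messenger RNA of a receptor marks the neurons that carry it. The capture of pS6-bearing ribosomes therefore takes in more of a receptor's messenger RNA where more of its neurons are active. In these bulk samples a change in the number of neurons, in the RNA per neuron and in the share of ribosomes captured cannot be told apart. Mouse receptor genes lie in clusters of tandem copies, have an intronless coding sequence in most cases, and fall into class I, the fish-like receptors, and class II, to which the genes of this cluster belong.

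In GENCODE M21, on the mouse build GRCm38, 56 of the 57 members were found, all on chromosome 19 between 11826803 and 13921866, a span of 2095.1 kb. The symbol Olfr1433 was not matched; it is a synonym of Olfr1434 in RefSeq's GRCm38.p6 annotation, and both had the same counts in every library, 7 in total, so they were read as 1 measurement. The coding strand was plus for 31 members and minus for 25. Gaps of at least 100 kb divided the members into 4 blocks. Block 1 held 4 members, from Olfr1417 to Olfr1420 (11826803 to 11898079). Block 2 held 11, from Olfr1423 to Olfr1441 (12031787 to 12423569). Block 3 held the pair Olfr1442 and Olfr1443 (12670439 to 12683851), and block 4 held 39, from Olfr1444 to Olfr1505 (12857283 to 13921866). The 3 gaps measured 133.71, 246.87 and 173.43 kb and contained 2, 6 and 5 other coding genes.

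The encoded proteins were 307 to 359 residues long, with a median of 314. Over 1540 pairs of members the protein identity ran from 32.03% to 97.5%, with a median of 44.4%. For 53 of 56 members the most similar protein among the receptors of the annotation was another member, or Olfr1440 or Olfr1449. The exceptions were Olfr1431, nearest to Olfr235 at 94.2%, Olfr1441, nearest to Olfr76 at 61.1%, and Olfr1496, nearest to Olfr50 at 58.0%. This count goes by symbol. The positions of Olfr235, Olfr76 and Olfr50 were not checked, so they may lie within the same stretch of chromosome.

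At the cytoplasmic end of the third transmembrane segment, odorant receptors carry a conserved Asp-Arg-Tyr motif, which takes part in coupling to the G protein. The motif was Asp-Arg-Tyr in 42 of 56 members, Asp-Arg-His in 10, Asp-Arg-Phe in 3 and Asp-His-Tyr in Olfr1462. The Asp-Arg-Phe members were 3 of the 4 genes of block 1 (Olfr1417, Olfr1418 and Olfr1420). All 10 Asp-Arg-His members lay in block 4: Olfr1444, Olfr1450 and 8 genes from Olfr1471 to Olfr1489. The 60 coding bases around the motif are shown for the 4 members with the lowest p-values after 100% acetophenone, for the 2 most counted members, and for a pair that short reads cannot separate here. Bases are read 5′ to 3′ on the coding strand from the GENCODE M21 transcripts, and capitals mark the 3 codons of the motif.
Olfr1463: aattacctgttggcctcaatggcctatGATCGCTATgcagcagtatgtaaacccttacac
Olfr1444: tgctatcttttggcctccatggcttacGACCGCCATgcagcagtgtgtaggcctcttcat
Olfr1448: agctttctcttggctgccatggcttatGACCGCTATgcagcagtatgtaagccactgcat
Olfr1451: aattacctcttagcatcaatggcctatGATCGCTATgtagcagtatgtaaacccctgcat
Olfr1427: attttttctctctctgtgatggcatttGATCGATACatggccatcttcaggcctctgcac
Olfr1428: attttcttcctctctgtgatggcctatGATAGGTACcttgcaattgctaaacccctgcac
Olfr1425: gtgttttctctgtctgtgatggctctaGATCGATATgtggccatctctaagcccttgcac
Olfr1426: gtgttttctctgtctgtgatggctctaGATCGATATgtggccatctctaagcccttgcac

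Olfr1425 and Olfr1426 differed at 0 of these 60 bases, and their coding sequences were 94.57% identical. Olfr1451 and Olfr1463 differed at 7 of 60 bases, and Olfr1444 differed from Olfr1451 at 18. A read from this stretch alone could not be assigned to Olfr1425 or to Olfr1426.

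Members with such near copies mostly had a lower share of uniquely counted reads. The counts used here are reads with a single alignment. Over all libraries they made up 71.4% of the members' counts when reads with several alignments were shared out as well, against 63.5% for all receptors. In 11 members at least 99% of the counts were unique, among them Olfr1428, Olfr1441, Olfr1444, Olfr1451 and Olfr1500. In 25 members fewer than 50% were unique, among them Olfr1426 at 27.9%, Olfr1424 at 35.1%, Olfr1484 at 23.6% and Olfr1487 at 8.70%. The 25 members with a relative above 90% coding identity had a median unique share of 25.5%, and those at or below 90% had 86.9%. Across the 40 members with at least 10 counts, the unique share and the identity to the nearest receptor had a Spearman correlation of -0.826 and a Pearson correlation of -0.710; members share relatives, so this describes them and is no test.

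**Figure D1:**
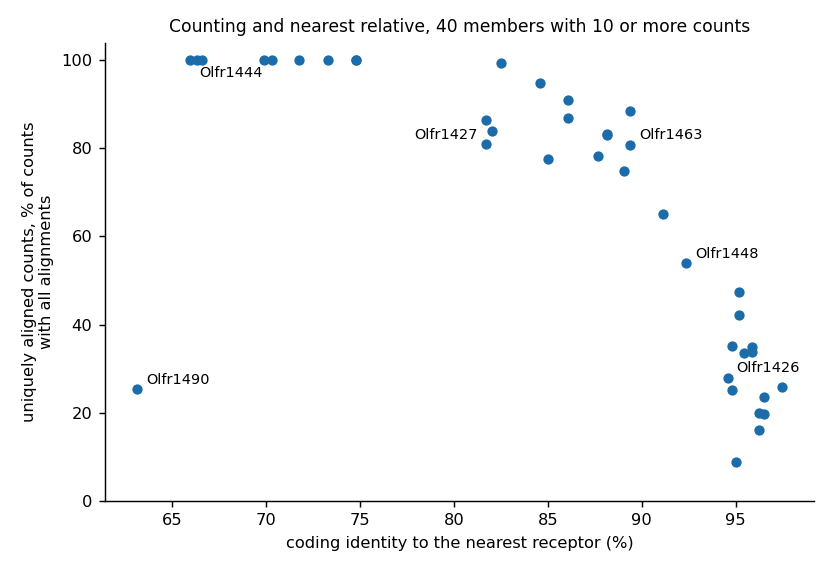
Each point is 1 of the 40 members with at least 10 counts; the x axis is the coding identity (%) to the nearest receptor and the y axis the uniquely aligned counts as a percentage of the counts with all alignments. Members with distant relatives, such as Olfr1444, sit near 100%, members above 94% identity sit below 50%, and Olfr1490 stands apart with 25.4% at an identity of 63.1%.

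Libraries held 2118099 to 9526932 unique counts. Odorant receptors made up 0.134% to 0.820% of them in the acetophenone experiment and 0.0232% to 0.267% in the TMT experiment. Most TMT libraries were deeper than the acetophenone libraries and counted receptors more thinly. The 1% and 100% libraries of TMT litter 1 and the 100% library of litter 3 were no deeper, with 2869995, 2672161 and 3004962 counts. The 0.267% was that of 1% TMT litter 1, within the acetophenone range. The 12 markers of mature olfactory neurons were all detected, with a summed level of 4435 to 7661 CPM (a gene's counts per 1000000 unique counts of the library) in the acetophenone controls and 1652 to 4426 CPM in the TMT controls. Members received 43 to 1296 counts a library, 10074 in all. At 43 counts a share of receptor counts of 1.56% had a 95% Wilson interval of 1.16% to 2.10%, which covers counting error only.

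The members' share of the receptor counts overlapped between the experiments. In the acetophenone controls they made up 5.73% ± 0.549 (SD, n = 5) of the receptor counts, after 100% acetophenone 5.68% ± 0.373 (n = 3) and after 1% acetophenone 4.76% ± 0.413 (n = 3). In the TMT experiment the shares were 4.61% ± 2.78 in controls, 5.20% ± 1.21 at 1% and 5.29% ± 1.58 at 100% (n = 4 each). The share after 100% acetophenone overlapped that of the controls, which ran from 5.06% to 6.37%. After 1% acetophenone the 3 libraries (5.06%, 4.29% and 4.93%) were each below the control of their own litter (6.37%, 5.83% and 5.29%); this was not tested. The TMT controls ranged from 1.56% in litter 3 to 8.16% in litter 1.

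**Figure D2:**
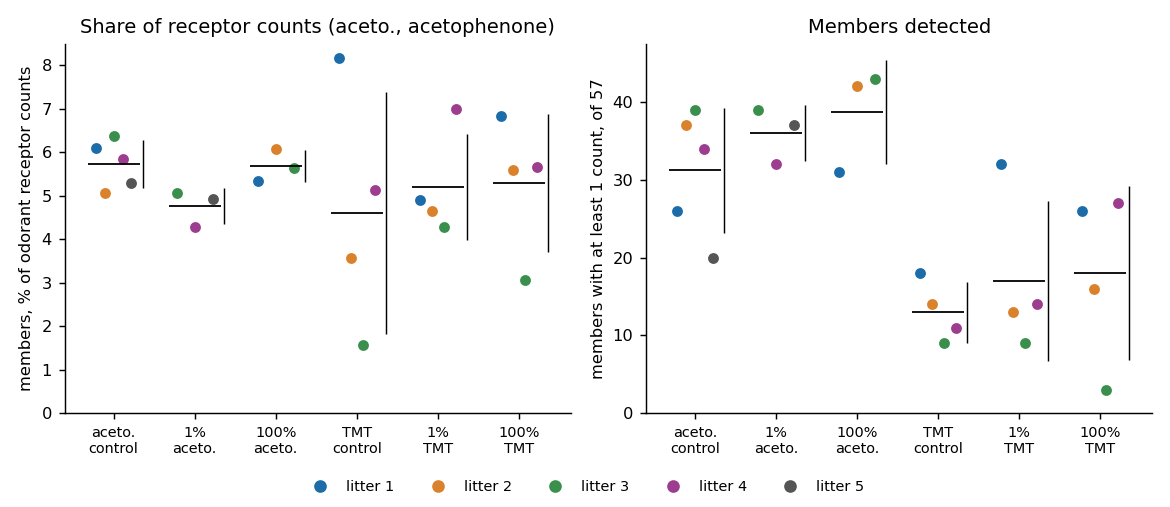
Left, the members' share of all odorant receptor counts (%); right, the number of the 57 members with at least 1 count. Each point is a library coloured by litter, horizontal lines are group means and vertical lines ± 1 SD; groups overlap on the left, and on the right TMT libraries detect 3 to 32 members against 20 to 43 in the acetophenone experiment.

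Counts were concentrated in few members. Olfr1427 had 2122 counts, Olfr1428 1069, Olfr1463 1046, Olfr1494 732 and Olfr1491 688, and these 5 held 56.2% of the total; the top 10 held 73.8%. Olfr1427 was the single member counted in all 23 libraries. At least 1 count was found for 55 members; Olfr1453 and Olfr1474 had none, and 9 members never reached 3 counts in a library. At least 10 counts in some library were reached by 31. The number detected in a library ran from 3, in 100% TMT litter 3, where Olfr1427 alone held 93.5% of the members' counts, to 43, in 100% acetophenone litter 3. Block 2 and block 4 held nearly all counts, 41.0% and 51.5%, while block 1 held 4.68% and block 3 2.75%.

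Per kb of annotated exon, the order of levels over the 9 control libraries was Olfr1427 with 7.67 ± 6.76 CPM per kb (SD), Olfr1428 with 6.28 ± 6.46, Olfr1494 with 5.53 ± 4.998, Olfr1491 with 4.09 ± 3.22, Olfr1463 with 3.54 ± 4.77, Olfr1500 with 1.94 ± 2.63, Olfr1420 with 1.85 ± 2.15, Olfr1444 with 1.69 ± 2.25, Olfr1497 with 1.35 ± 2.13 and Olfr1423 with 0.988 ± 0.789. No neighbours in this order differed by more than their SD. The order pools the controls of both experiments and is not the same in each. In CPM, Olfr1427 averaged 40.5 and Olfr1494 15.5 in the acetophenone controls, but 7.06 and 7.41 in the TMT controls. Olfr1463 averaged 14.7 CPM in the acetophenone controls and 0.133 CPM in the TMT controls. Olfr1427 and Olfr1428 are adjacent genes of block 2, and Olfr1491 and Olfr1494 adjacent members of block 4 that are 88.1% identical in coding sequence. The rank order of the 57 levels agreed between libraries of the acetophenone experiment with a median Spearman correlation of 0.716 over 55 pairs of libraries (0.466 to 0.836), and between TMT libraries with 0.424 over 66 pairs (0.0834 to 0.739); many ranks there are ties at 0.

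**Figure D3:**
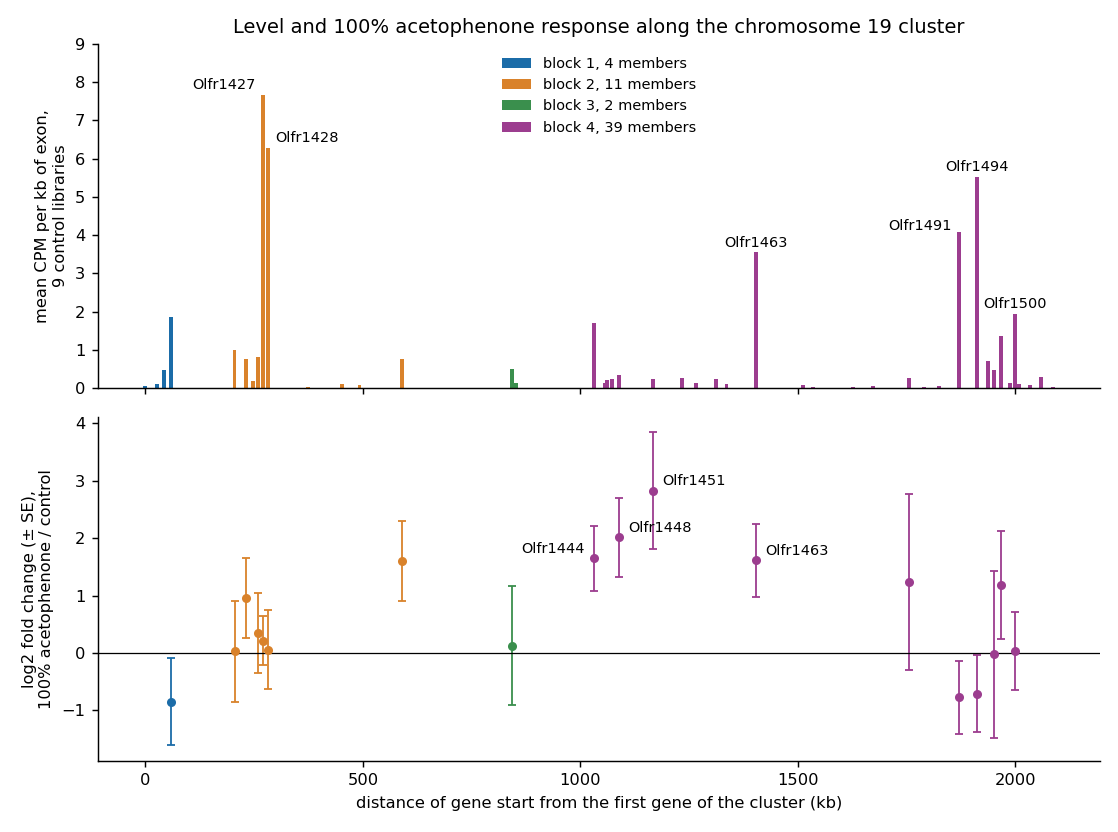
Top, mean CPM per kb of exon over the 9 control libraries for the 56 placed members against the distance of the gene start from the first gene (kb), coloured by block; bottom, log2 fold change ± SE of the 18 members tested, 100% acetophenone against same-litter controls. The adjacent Olfr1427 and Olfr1428 have the highest bars, and the 4 labelled members with the lowest p-values lie between 1030.5 and 1404.5 kb.

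The first comparison asked which members were captured more after undiluted acetophenone. It set the 3 libraries of 100% acetophenone against the controls of the same litters. Olfr1463, Olfr1444, Olfr1448 and Olfr1451, all of block 4, were higher after the odor in each of the 3 litters, by 3.14 to 7.42 times in mean CPM. None passed an adjusted p of 0.05 over all genes, and neither did any other member.

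Olfr1463 (chr19:13231328-13236400, plus strand) had 9.95, 27.3 and 25.1 CPM in the controls of litters 1, 2 and 3 and 20.5, 100.5 and 74.5 CPM after 100% acetophenone. Each litter was higher with odor, by 2.06, 3.69 and 2.97 times, although the odor value of litter 1 lay below the controls of litters 2 and 3. The log2 fold change was 1.62 (SE 0.63; by edgeR, adjusted p = 1.00). In the model that blocks on litter it was 1.49 (SE 0.27, adjusted p = 0.168), the smallest adjusted p of a member in this comparison. Its nearest relative, Olfr1466 (89.4% coding identity), had 0, 1 and 1 counts in the same controls and 3, 4 and 14 with the odor.

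Olfr1444 (chr19:12857283-12863440, plus strand), the first gene of block 4 and 1 of the Asp-Arg-His receptors, had 5.46, 4.89 and 13.0 CPM in the controls and 13.8, 30.6 and 31.1 CPM with the odor. The groups did not overlap, with a ratio of means of 3.23. The share of all genes with such a separation is not given here. For Olfr1444, and for Olfr1448, Olfr1451 and Olfr1441 below, it therefore only describes the values. Its log2 fold change was 1.65 (SE 0.57, adjusted p = 1.00), and 1.67 with litter as a block (adjusted p = 0.585). With no receptor closer than 70.3% in coding sequence, 99.97% of its counts were unique.

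Olfr1448 (chr19:12916661-12924419, minus strand) had 1.60, 5.94 and 3.35 CPM in controls and 6.71, 21.4 and 17.4 CPM with the odor. The groups did not overlap, and litters 1, 2 and 3 were higher by 4.18, 3.60 and 5.19 times. The log2 fold change was 2.01 (SE 0.69, adjusted p = 1.00) and 2.02 with litter as a block (adjusted p = 0.551). Only 53.9% of its counts were unique; counted with all alignments it was 2.17 (SE 0.64).

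Olfr1451 (chr19:12995014-13000417, plus strand) had 0, 6 and 3 counts in the controls and 13, 22 and 28 with the odor, or 0, 2.10 and 1.25 CPM against 4.59, 7.47 and 12.8 CPM. The groups did not overlap. Its log2 fold change was 2.82 (SE 1.02, adjusted p = 1.00), and 2.97 with litter as a block (adjusted p = 0.752). The values rest on under 30 counts a library.

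Olfr1441, in block 2, ranked next by p. It had 1.28, 3.14 and 3.77 CPM in controls and 4.24, 7.47 and 14.2 CPM with the odor, with no overlap, and a log2 fold change of 1.60 (SE 0.70, adjusted p = 1.00). The 4 members of block 4 are not close copies: their protein identity to each other was 61.1% to 66.8%, and to Olfr1441 43.7% to 50.5%. Together the 5 members held 15.6%, 17.7% and 15.0% of the members' counts in the controls of litters 1 to 3 and 34.4%, 38.0% and 32.4% with the odor; they were picked by this contrast, so the shares only describe it.

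**Figure D4:**
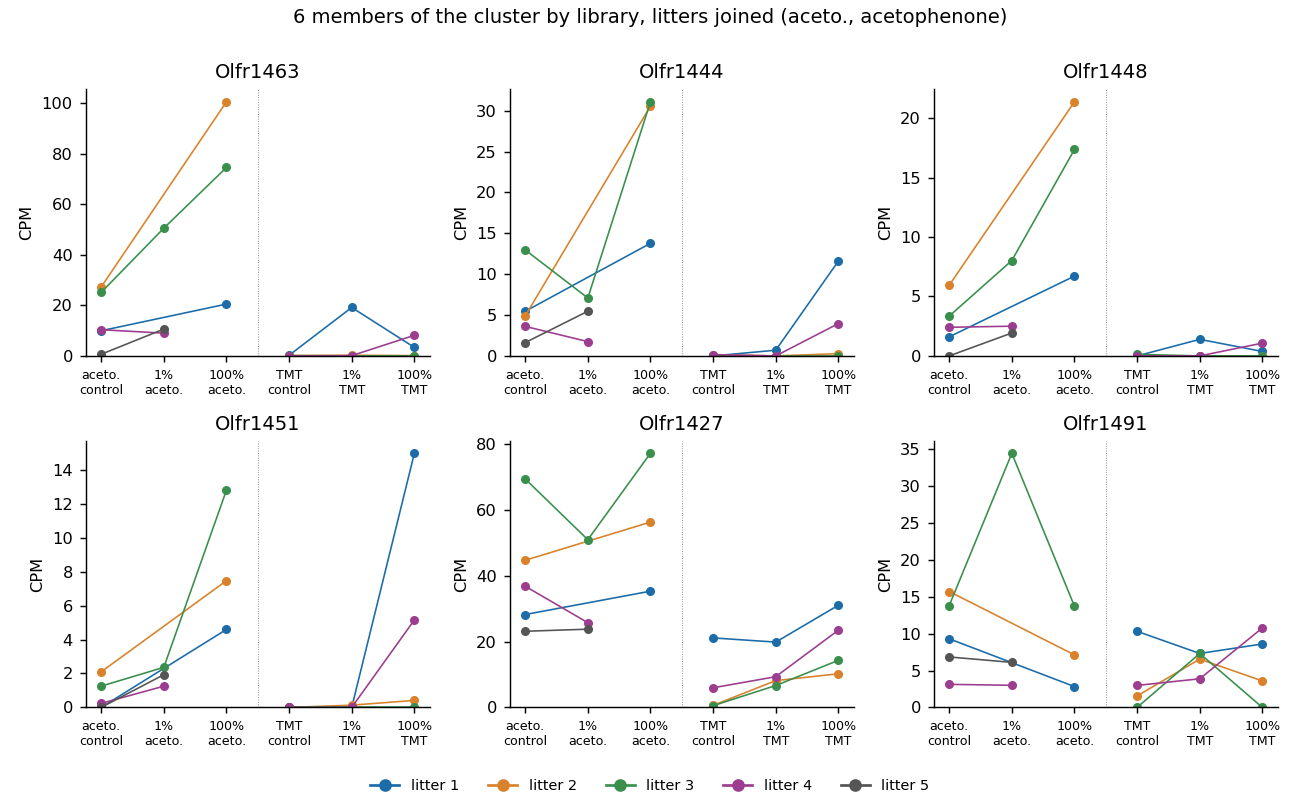
CPM of 6 members in each library, with lines joining libraries of the same litter (colours) and the acetophenone experiment left, the TMT experiment right of the dotted line. Olfr1463, Olfr1444, Olfr1448 and Olfr1451 are higher after 100% acetophenone in litters 1, 2 and 3, Olfr1427 differs there by 1.11 to 1.26 times, and Olfr1491 is lower in the same litters.

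The other members lay on either side of 0. On the higher side Olfr1497 had 12, 2 and 26 counts in controls and 13, 37 and 42 with the odor, a log2 fold change of 1.19 (SE 0.94), and Olfr1424 had 5, 14 and 4 counts against 10, 17 and 16 (0.96, SE 0.70). Both were higher in all 3 litters, as was Olfr1426 (0.35, SE 0.70), with groups that overlapped. Olfr1484 had 0, 14 and 2 counts against 0, 25 and 12 (1.24, SE 1.53). Olfr1427 had 28.2, 44.7 and 69.5 CPM in controls and 35.3, 56.3 and 77.3 CPM with the odor, a log2 fold change of 0.21 (SE 0.43, adjusted p = 1.00). It was higher in each litter by 1.11 to 1.26 times, which is within the spread between litters. Its neighbour Olfr1428 differed by 0.06 (SE 0.69). The direction turned under 3 of 18 alternatives for Olfr1427 and 5 of 18 for Olfr1428. On the lower side Olfr1420 had -0.85 (SE 0.76), Olfr1491 -0.78 (SE 0.63) and Olfr1494 -0.71 (SE 0.67) on the log2 scale, and each was lower with the odor in all 3 litters. Olfr1491 had 9.31, 15.7 and 13.8 CPM in controls and 2.83, 7.13 and 13.7 CPM with the odor. None of these lower values passed the test with or without the block.

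A count filter left 18 members to test, and a member can pass it through its level in the odor libraries. Olfr1424, Olfr1441, Olfr1448, Olfr1451 and Olfr1497 each had a control library under 10 counts and at least 10 counts in every odor library. Their pass rested on the odor libraries, and all of them were higher in every litter. The counts of members below, by p or by litter, are therefore partly set by the filter and only describe the members. Of all 11564 genes tested 0% were called by edgeR's quasi-likelihood test with Benjamini-Hochberg adjustment, and 0 of the 18 members. At an unadjusted p under 0.05 there were 4 members, all higher, where 0.527% of all genes passed. This fit leaves litter out, although same-litter deviations correlated at 0.73, 0.57 and 0.80 in litters 1 to 3. The 0.527% is therefore to be read beside the share with litter as a block, given below. The count of 4 fell to 0 without the odor library of litter 2 or of litter 3, where 0.324% and 0.581% of genes passed. It was also 0 without litter 2 in both groups (0.228% of genes). It was 1 without litter 3 in both groups (0.514%) or without the control of litter 1 (0.684%) or of litter 3 (1.04%). Without the control of litter 2 it was 2 (0.842%). It was 7 without litter 1 or its odor library, where 0.948% and 1.16% of genes passed. With litter as a block 0.0951% of genes were called and 0 members, while 5 members, all higher, had an unadjusted p under 0.05, against 5.27% of genes; without litter 1 these were 8, against 5.01%. DESeq2 called 0.027% of genes and 0 members. Of the members tested 9 of 18 were higher in every litter, against 18% of all genes tested and 105 of 303 other receptors tested. Lower in every litter were 3 of 18, against 10% of all genes and 19 of 303 other receptors. The members' median log2 fold change was 0.28, that of the other receptors 0.40 and that of all genes -0.01, with 14 of 18 members positive. The members' median moved to 1.17 without the odor library of litter 1, 1.05 and 0.66 without the control of litter 2 or 3, 0.58 without litter 1, and 0.11 without the odor library of litter 3.

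Receptor counts as a whole also moved with this group. They made up 0.192%, 0.484% and 0.485% of the counts in the controls of litters 1 to 3 and 0.272%, 0.725% and 0.820% with the odor. The summed mature neuron markers were 4435, 5415 and 4461 CPM in these controls and 5940, 7536 and 5054 CPM with the odor. The sums for Bowman gland, basal cells and vomeronasal neurons were also higher in each of these litters. Those of ensheathing glia were lower in each, and the other cell type lists went both ways. The part of any of these in the result was not tested. Scaled to receptor counts, which moved the median of all genes by -0.49 on the log2 scale, the members' median was -0.31 with 8 of 18 positive, so the direction of the list flips with the scaling. On that scale the log2 fold change was 2.44 for Olfr1451, 1.44 for Olfr1448, 1.03 for Olfr1441, 1.01 for Olfr1444 and 0.93 for Olfr1463, still positive, and that of Olfr1427 turned to -0.34. In receptor terms Olfr1463 had 53.3 ± 2.68 of every 10000 receptor counts in the 3 same-litter controls and 101.6 ± 33.0 with the odor (SD, n = 3).

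**Figure D5:**
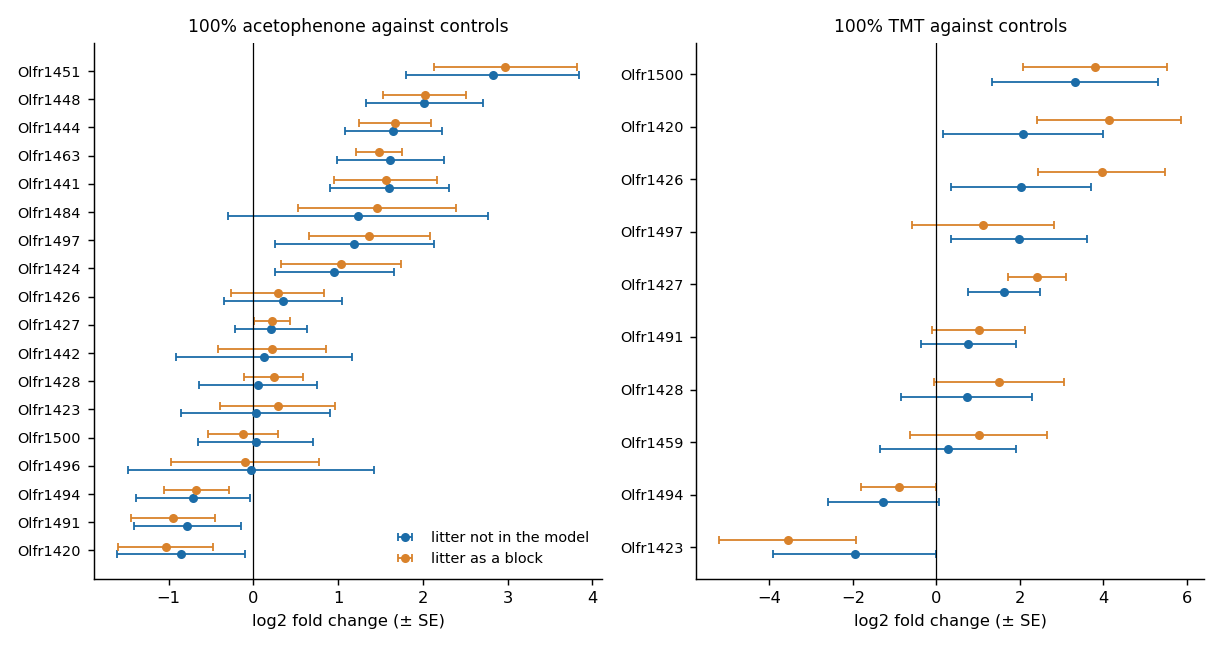
Log2 fold change ± SE of the tested members, 18 for 100% acetophenone (left) and 10 for 100% TMT (right), against controls; blue without and orange with litter in the model. On the left the 5 highest members lie at 1.60 or above without the block, and on the right the SEs of 0.87 to 1.99 without the block compare with 0.43 to 1.53 on the left.

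At 1% acetophenone the members did not stand out, and none was called. Olfr1463 had 25.1, 10.4 and 0.65 CPM in the controls of litters 3, 4 and 5 and 50.5, 9.004 and 10.6 CPM with the odor. It was higher in litters 3 and 5 and lower in litter 4, with a log2 fold change of 0.93 (SE 1.15, adjusted p = 1.00); without the odor library of litter 3 it was -0.20. Olfr1444 had 13.0, 3.61 and 1.63 CPM in controls and 7.08, 1.75 and 5.46 CPM with the odor (log2 fold change -0.34, SE 0.88, turned under 5 of 18 alternatives). Olfr1448 and Olfr1451 were too thinly counted to be tested: Olfr1448 had 8, 10 and 0 counts in controls and 17, 10 and 6 with the odor, and Olfr1451 had 3, 1 and 0 against 5, 5 and 6.

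The 5 members with the smallest p at this dose were Olfr1495, Olfr1459, Olfr1491, Olfr1497 and Olfr1494. Olfr1495 had 8, 5 and 4 counts in controls and 21, 1 and 21 with the odor, a log2 fold change of 1.51 (SE 1.10, adjusted p = 1.00). Olfr1497 was higher in all 3 litters, from 10.9, 3.61 and 0.33 CPM to 20.8, 4.25 and 4.50 CPM, with a log2 fold change of 0.98 (SE 1.12), or -0.058 without the odor library of litter 3. Olfr1459 was lower in all 3 at -0.95 (SE 0.88), with 12, 27 and 8 counts against 1, 19 and 4. Olfr1494 had -0.69 (SE 0.79), and Olfr1491 0.85 (SE 0.97), with 34.5 CPM in litter 3 against 13.8 in its control; without that odor library it was -0.70. Of 13 members tested 0 were called and 0 had an unadjusted p under 0.05 by edgeR, where 0% and 0.77% of 12077 genes did. Without the odor library of litter 4 there was 1 member of 20 with such a p, against 0.442% of genes. With litter as a block 0.00828% of genes and 0 members were called, and by DESeq2 0.00528% and 0. One member of 13, Olfr1497, was higher in every litter, against 13.6% of all genes tested, and 2, Olfr1423 and Olfr1459, were lower in every litter, against 18.1%. The members' median was -0.16, with 5 of 13 positive, beside 0.38 for the other receptors and 0.01 for all genes. Its sign rests on single libraries: it was 0.49 without the control of litter 3, 0.09 without that of litter 4, 0.66 and 0.36 without the odor library of litter 4 or 5, and 0.45 without litter 4. Without the odor library of litter 3 it was -0.59, with 1 of 14 positive.

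The doses met in a single litter, the third. There Olfr1463 had 25.1 CPM in the control, 50.5 at 1% and 74.5 at 100% acetophenone, Olfr1448 had 3.35, 8.03 and 17.4 CPM, and Olfr1451 had 1.25, 2.36 and 12.8 CPM. Olfr1444 had 13.0, 7.08 and 31.1 CPM. With litter in the model, 100% against 1% acetophenone gave a log2 fold change of 1.89 for Olfr1444 (SE 0.69, adjusted p = 0.754), 1.92 for Olfr1441 (SE 0.86, adjusted p = 0.786) and 0.55 for Olfr1427 (SE 0.25, adjusted p = 0.786). The difference was -1.36 for Olfr1491 (SE 0.52, adjusted p = 0.772) and -1.87 for Olfr1442 (SE 0.83, adjusted p = 0.786), both lower at the higher dose. For Olfr1463 the difference was 0.50 (SE 0.55, adjusted p = 0.904). edgeR tested 21 members and called 0. An unadjusted p below 0.05 was found for 5 of them, 3 higher and 2 lower. Among the 12873 genes tested 0% were called, and 6.27% had such a p. Without litter 1 there were 2 members higher and 0 lower, against 6.78% of genes. Without litter 2 or 4 there were 0 higher and 1 lower, against 6.37% and 4.52%. Without litter 3 there were 2 higher and 1 lower (6.4% of genes), and without litter 5 there were 3 higher and 1 lower (5.78%). DESeq2 called 0.0617% of genes and 0 members.

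In the TMT experiment the members were counted thinly and unevenly between litters. After 100% TMT, Olfr1427 was higher in all 4 litters: the controls of litters 1 to 4 had 21.1, 0.63, 0.53 and 5.97 CPM and the odor libraries 31.1, 10.2, 14.3 and 23.5 CPM. The groups overlapped because of the control of litter 1. The log2 fold change was 1.62 (SE 0.87, adjusted p = 0.404), and 2.41 with litter as a block (SE 0.69, adjusted p = 0.0852). At 1% TMT the same gene had 19.9, 8.16, 6.66 and 9.34 CPM, higher than the control in litters 2 to 4 and lower in litter 1, with a log2 fold change of 0.68 (SE 0.86, adjusted p = 0.999). Both TMT doses share these controls.

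Olfr1426, whose nearest relative Olfr1425 is 94.57% identical in coding sequence, had 13, 0, 0 and 0 counts in controls and 16, 13, 2 and 24 after 100% TMT. It was higher in each litter, with a log2 fold change of 2.02 (SE 1.68; by edgeR, adjusted p = 0.623), and 3.96 with litter as a block (SE 1.52, adjusted p = 0.176). Olfr1420 had 10, 0, 0 and 0 counts in controls and 13, 11, 0 and 22 with the odor (2.08, SE 1.92; with the block 4.13, adjusted p = 0.225). Olfr1500 had 5, 0, 0 and 0 counts in controls and 11, 0, 1 and 51 with the odor (3.32, SE 1.99). Olfr1497 had 2, 0, 2 and 1 counts in controls and 5, 0, 0 and 14 with the odor (1.98, SE 1.64). Olfr1423 went the other way, with 37, 26, 9 and 0 counts in controls and 10, 0, 0 and 0 with the odor (-1.95, SE 1.95). Without the control of litter 1 the fitted log2 fold changes were 7.19 for Olfr1426, 6.87 for Olfr1420, 7.11 for Olfr1500 and 3.01 for Olfr1427. The values thus depended on that library, and none passed an adjusted p of 0.05. Olfr1426, Olfr1420 and Olfr1500 had 0 counts in the other controls, so their fitted values there measure no size.

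The members that were high after 100% acetophenone had few or no counts in the TMT controls and were counted in some litters after 100% TMT. Olfr1451 had 0 counts in all 4 controls, 0, 1, 0 and 0 at 1% TMT and 40, 3, 0 and 43 at 100% TMT. Olfr1444 had 0, 1, 0 and 1 counts in controls and 31, 2, 0 and 33 at 100% TMT. Olfr1463 had 1, 1, 1 and 0 counts in controls, 55, 2, 0 and 1 at 1% TMT and 9, 1, 0 and 68 at 100% TMT. All values of 9 counts or more for these 3 members at 100% TMT came from litters 1 and 4. Those libraries also held the most receptor counts of the group, 5127 and 14329, against 3469 and 1497 in litters 2 and 3. Receptors made up 0.192% and 0.172% of all counts in litters 1 and 4, and 0.0480% and 0.0498% in litters 2 and 3. In the controls of litters 1 and 4 they made up 0.121% and 0.0325%. The part of this in the counts of these members was not tested. The filter on low counts removed Olfr1444, Olfr1451 and Olfr1463 from the TMT fit, so edgeR gave no test of them there.

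DESeq2, which tests without that filter, called Olfr1451 after 100% TMT (log2 fold change 7.40, SE 2.07, adjusted p = 0.0204), the 1 call of a member by any tool in the 8 comparisons. With all controls at 0 this fitted value is no bound; against a floor of 3 counts in each control library the mean of 5.13 ± 6.96 CPM (SD, n = 4) was at least 9.91-fold higher. Without the odor library of litter 1 the mean was 1.855 CPM and the bound 3.58-fold, and the 3 and 0 counts of litters 2 and 3 do not exceed the floor of 3 counts. In edgeR without the filter its adjusted p was 0.189. DESeq2 called 3.74% of all genes in this comparison. By edgeR's quasi-likelihood test 0 of 10 members were called after 100% TMT and 0 had an unadjusted p under 0.05, where 0% and 14.7% of 13233 genes did. Without the control of litter 1, 5 of 11 members had such a p, all higher, against 19.1% of genes, and without litter 1 in every group 2 of 5, against 18%. Each of the other left-out litters or libraries gave at most 1 in either direction, against 8.52% to 14.6% of genes. With litter as a block 2.37% of genes and 0 members were called, and 3 members, all higher, had an unadjusted p under 0.05, against 19.6% of genes. With the block but without litter 2 there was 1, against 14.7% of genes. Without litter 4 there was 1 higher and 1 lower, against 15.3%. Higher in every litter were 2 of 10 members (Olfr1426 and Olfr1427), against 12.3% of all genes tested, and lower in every litter 0, against 17.2%. The median was 1.19 for the 10 members, 0.88 for the other receptors and 0.02 for all genes; scaled to receptor counts, which moved the median of all genes to -1.15, the members' median was 0.34. Without the control of litter 1 the median was 3.96 for the members and 3.63 for the other receptors, without the odor library of litter 1 it was 0.60 and 0.47, and without litter 1 in every group 2.76 and 1.55. Without litter 4 it was 0.27 and 0.50, and without its odor library 0.73 and 0.63.

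After 1% TMT Olfr1459 had 16, 1, 0 and 0 counts in controls and 5, 9, 27 and 68 with the odor, lower in litter 1 and higher in the other 3 (1.81, SE 1.61; with the block 4.48, SE 1.98, adjusted p = 0.694). Olfr1491 had 42, 10, 0 and 19 counts in controls and 21, 49, 67 and 37 with the odor (0.82, SE 1.13). Olfr1500 had a log2 fold change of 2.91 (SE 1.98), Olfr1497 one of 1.94 (SE 1.63) and Olfr1423 one of -1.85 (SE 1.92). Of 10 members edgeR called 0 and 0 had an unadjusted p under 0.05, where 0% and 4.29% of genes did. Without the control of litter 1, 7 of 11 members had such a p, all higher, against 8.97% of genes. Each of the other left-out litters or libraries gave 0 or 1, against 3.01% to 5.76% of genes. With litter as a block 0.00756% of genes and 0 members were called, and 1 member, Olfr1459, had an unadjusted p under 0.05, against 7.16% of genes; DESeq2 called 0.0215% of genes and 0 members. In every litter 0 members were higher, against 8.71% of all genes tested, and 0 were lower, against 7.43%.

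Between the TMT doses no member differed past the test. Olfr1427 was 0.94 higher at 100% than at 1% on the log2 scale (SE 0.85, adjusted p = 0.994). Of 10 members edgeR called 0, with or without the block, and 0 had an unadjusted p under 0.05. Of all genes 0% were called with or without the block, and 5.27% had such a p. Without the 1% library of litter 3 there was 1 member with such a p, against 3.71% of genes. DESeq2 called 0.179% of genes and 0 members.

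The test of the difference between the responses to the odors called no member. At 100% the acetophenone response minus the TMT response was -5.10 for Olfr1495 (SE 2.20, adjusted p = 1.00), -4.68 for Olfr1451 (SE 2.20), -3.44 for Olfr1444 (SE 1.65), -2.72 for Olfr1463 (SE 1.55) and -0.69 for Olfr1448 (SE 1.01), each with an adjusted p of 1.00. The TMT controls held at most 1 count each of Olfr1444, Olfr1451, Olfr1463 and Olfr1448, and 0 of Olfr1495. Olfr1495 had 14, 0, 0 and 3 counts after 100% TMT, so its value rests mostly on litter 1. With litter as a block Olfr1427 had -2.29 (SE 0.82, adjusted p = 0.333). Of 20 members tested 0 were called, 1 had an unadjusted p under 0.05 without the block and 4 with it, all negative. Without the block, leaving out litter 1 of the TMT experiment gave 5 negative and 1 positive, against 6.49% of genes. Leaving out its litter 2 or 3 gave 2 or 3, against 4.42% and 4.53%. Leaving out its litter 4 or acetophenone litter 1 or 2 gave 0, against 3.27%, 3.24% and 2.92%. With no litter left out, 0% of 13033 genes were called and 4.83% had such a p. With the block 0.0691% were called and 11.1% had such a p. DESeq2 called 0.0726% of genes and 0 members. At 1% 0 of 17 members were called by edgeR and 0 had an unadjusted p under 0.05, where 0% and 1.14% of 13720 genes did. Without TMT litter 1 there was 1 with such a p, against 2.39% of genes. With the block 0% of genes and 0 members were called, and by DESeq2 0.00514% and 0. The median difference at 100% was -1.60 for the members and -1.60 for the other receptors. Without TMT litter 4 it was -0.59, with 8 of 20 members positive, and -0.76 for the other receptors.

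By position, block 4 held 46.2%, 50% and 48.0% of the members' counts in the controls of litters 1 to 3 and 50.2%, 68.0% and 59.9% after 100% acetophenone, higher in each litter. Without Olfr1463, its most counted gene, the block's share was 41.2%, 43.7% and 43.45% in these controls and 42.05%, 58.5% and 52.2% with the odor, so litter 1 differed little. With Olfr1463 counted, the share was 48.0%, 41.6% and 33.2% in the controls of litters 3 to 5 and 59.15%, 41.8% and 53.9% after 1% acetophenone, level in litter 4. After 100% TMT it averaged 31.6% ± 22.7 (SD, n = 4), from 2.17% in litter 3 to 50.2% in litter 4. The share of block 1 ran from 5.01% to 10.1% in the acetophenone controls and from 1.71% to 3.32% after 100% acetophenone, with no overlap; 332 of its 471 counts over all libraries were those of Olfr1420. These shares are parts of a whole and were not tested.

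Among the 20 genes of olfactory transduction downstream of the receptors, 17 were tested after 100% acetophenone and 0 were called with or without the block; their median log2 fold change was 0.17, with 13 positive. After 100% TMT 18 were tested, 0 were called without the block, and 1 higher and 1 lower with it, where 2.37% of all genes were called. Of the 5 genes of receptor trafficking, 3 were tested after 100% acetophenone and 5 after 100% TMT, and 0 were called in either. Of 15 activity genes, which mark recent neuronal firing, 9 were tested after 100% acetophenone with a median of 1.40 and 8 positive; 0 were called without the block and 1 with it, higher, where 0.0951% of all genes were called. After 100% TMT 12 activity genes were tested with a median of 0.72; 0 were called without the block and 2 with it, both higher, against the same 2.37%.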

How the data were processed

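Libraries were grouped by odor, dose and litter from the labels. Per the submitters' processing notes, reads were processed with Bowtie and bedtools against mm10; which tool made the counts is not given in the sources used here. The deposited tables give counts per gene symbol, 1 table a library, in 20 value columns that never decrease from left to right. The first was read as the authors' counts of uniquely aligned reads, and the last as the authors' expected counts, in which reads with several alignments are shared out and which are not whole numbers; they were rounded. That reading rests on the values. Copies that share reads are therefore uncertain, and strand use in counting is not stated.

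CPM is a count divided by the library's total unique counts, times 1000000. edgeR 4.0.16 (R 4.3.3) fitted quasi-likelihood models with TMM factors to all genes kept by filterByExpr at a minimum count of 10. Benjamini-Hochberg adjustment ran over all genes tested, 2-sided, with a threshold of 0.05. The litter, which the labels give, pairs the libraries. Same-litter deviations correlated at 0.57 to 0.89 in the acetophenone experiment and at -0.05 to 0.39 in the TMT experiment. Between different litters the highest values were 0.58 and 0.29. For TMT litters 3 and 4 a different litter correlated more highly than the same litter in several pairings, so there the pairing rests on the labels. Nothing says that the libraries of a litter are separate mice, so p-values measure the spread between these libraries. The dose contrast of acetophenone had litter in the model, the others as an alternative. The scripts were tested on simulated data. Alternatives were DESeq2 1.42.0, its size factors, no filter, the last column, scaling to receptor counts, and leaving out litters or libraries.

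Named members were those called in any comparison, the 5 with the smallest p in each odor against control comparison with and without the block, the 10 with the highest control CPM, and those under 50% unique. The members and gene lists were chosen with earlier results of these data known. Gene models and coding sequences were GENCODE M21. Promoter windows were not used here.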

Additional observations from a re-analysis of the deposited data

Results flagged for a closer look

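Of 70 groups of values looked at for an outlying library, 17 had one, and all were TMT libraries. The rule is made to flag about 1 of 20 groups of normally distributed values. These groups hold sparse counts from the same few libraries, so the 17 cannot be set against that rate. In the TMT controls litter 1 stood apart from the other 3 in the members' summed level (98.8 CPM) and in Olfr1428 (19.7 CPM), Olfr1459 (3.93 CPM), Olfr1426 (3.19 CPM), Olfr1420 (2.46 CPM) and Olfr1500 (1.23 CPM), and litter 3 in Olfr1448 (0.131 CPM, 1 count). At 1% TMT litter 1 stood apart in Olfr1463 (19.2 CPM, 55 counts), Olfr1420 (5.92 CPM), Olfr1423 (3.83 CPM), Olfr1495 (2.09 CPM), Olfr1448 (1.39 CPM) and Olfr1444 (0.697 CPM, 2 counts), and litter 2 in Olfr1451 (0.134 CPM, 1 count). At 100% TMT litter 1 stood apart in Olfr1495 (5.24 CPM), Olfr1423 (3.74 CPM) and Olfr1441 (3.37 CPM). In many of these groups the other 3 libraries were at or near 0 counts. The groups of 3 libraries were not looked at.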

How the results depend on the processing

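The 8 comparisons kept 0 members called, higher or lower, under 141 of 142 alternatives, each with 1 choice changed or with the litter block and a left-out litter together. The exception was 100% TMT with DESeq2, where 1 member, Olfr1451, was called; the cause was not tested. With litter as a replicate block 0 members were called, and leaving out single litters or libraries gave 0 to 0. For acetophenone dose, the fit without the block, chosen after seeing the data, also gave 0. After 100% acetophenone the count of members at an unadjusted p under 0.05 by edgeR was 4, against 0.527% of all genes. Leaving out the 100% library of litter 2 or of litter 3, or all of litter 2, gave 0. Leaving out all of litter 3 or the control of litter 1 or 3 gave 1, and leaving out litter 1 gave 7. In these fits 0.228% to 1.04% of all genes had such a p. For the 23 pairs of a member and an odor contrast chosen by their small p, 432 of 439 values under alternatives kept their direction and 7 turned, all at 1% acetophenone. Over all 49 pairs of a named member and an odor contrast that tested it, 79 of 933 values turned, in 24 pairs. Without 1% litter 3 Olfr1463 was at -0.20, Olfr1497 at -0.058 and Olfr1491 at -0.70, while Olfr1494 was at -1.41; without litter 3 in both groups Olfr1491 was at -0.04, with the block too at -0.028, and scaled to receptor counts at -0.10. Without the control of litter 3 Olfr1494 was at 0.12, Olfr1463 at 1.96, Olfr1491 at 1.498 and Olfr1497 at 2.17. The members' share of receptor counts in acetophenone controls was 4.97% with all alignments and 4.38% without Olfr1427. Low counts left 39 of 57 members untested after 100% acetophenone, 44 after 1% and 47 in the TMT experiment.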
